A study of Mus musculus with 4 samples.

Results

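The genes of MHC class II presentation were examined in kidneys of pristane-injected WT and ZBP1-KO mice. The set was fixed by gene name for its role in the pathway, with earlier results of these data known: Ciita, H2-Aa, H2-Ab1, H2-Eb1, H2-DMa, H2-DMb1, Cd74 and Ctss. These 8 genes were looked up by Ensembl ID among the 54532 genes listed in each library. All 8 were found, and all 8 passed the filter on low counts that left 14908 genes for testing.

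There were 2 WT and 2 ZBP1-KO libraries of polyadenylated RNA from whole kidney. All animals were on the C57BL/6J background and received 500 µL of pristane, a hydrocarbon oil that provokes lupus-like autoimmunity, into the peritoneum at 8 weeks of age, and kidneys were collected 8 months after the injection. The paper describes the pristane-injected mice of both genotypes as female. In ZBP1-KO mice, exons 2 to 8 of Zbp1, the gene of a receptor for Z-DNA and Z-RNA, had been deleted in the whole body with CRISPR-Cas9. The methods describe WT mice as purchased animals, so genotype and origin of the mice cannot be told apart, and mice without pristane were not analysed here. Nothing in the titles says that the libraries came from separate animals, so p-values measure the spread between these libraries only.

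MHC class II molecules are pairs of an alpha and a beta chain that carry peptides of ingested proteins to the cell surface, where CD4 T cells read them. The chains assemble with the invariant chain, encoded by Cd74, which fills the peptide groove until endosomal proteases, cathepsin S (Ctss) among them, trim it away and the H2-DM dimer exchanges its last fragment for a peptide. CIITA is the coactivator without which the class II genes are hardly transcribed, and it is itself induced by interferon gamma, with IRF1 taking part. In the kidney, dendritic cells and macrophages carry most class II, and tubular cells can acquire it in inflammation. Whole-kidney RNA pools all of these, so that fewer cells of a type and less RNA per cell cannot be told apart.

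Total counts were 9878776 to 12921925 per library, of which 49.5% to 61.5% fell on mitochondrially encoded genes. Counts of Zbp1 itself were 94 and 125 for WT against 18 and 0 for ZBP1-KO, where a count of 0 allows up to 0.323 CPM. Zbp1 had a log2 fold change (ZBP1-KO over WT) of -3.64 ± 0.89 (SE). Its p in the quasi-likelihood test of edgeR was 0.00153 unadjusted and 0.999 adjusted. The threshold of an adjusted p under 0.05 thus missed the deleted gene itself. The kidney markers Slc34a1, Lrp2 and Umod were high in every library, with Umod, the product of the thick ascending limb, at 244 and 223 CPM in WT kidneys against 383 and 205 in ZBP1-KO kidneys. CPM are counts scaled to a common library size after normalization by the trimmed mean of M values (TMM).

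Of the 8 genes, 5 lie within 197.1 kb of chromosome 17, the H2 complex, between positions 34119541 and 34316674 (GRCm38, GENCODE M21). The other 3 lie on other chromosomes. The CIITA complex is assembled on an X box and a Y box that stand at a fixed spacing before class II genes, so these motifs were searched in RefSeq promoter windows of GRCm38.p6, which run from 250 bases before to 50 bases after a gene's start. Windows were found for 5 of the 8 genes, while Ciita, H2-Ab1 and Cd74 had none and were not searched. The letters searched were CNNGNAAC for the core of the X box and TGATTGG for the Y box, in this order on either strand with 30 to 45 bases between their starts, and they were chosen after the promoter sequences had been seen. The pair was absent from the windows of H2-DMa and Ctss and present in H2-Aa, H2-Eb1 and H2-DMb1, against 40 of all 32851 windows (0.122%). The lines that follow show these 3 stretches on the strand of the gene, with both motifs in capitals, because CIITA is known to act on class II genes through such boxes.
H2-Aa, chr17:34287857-34287917, minus strand: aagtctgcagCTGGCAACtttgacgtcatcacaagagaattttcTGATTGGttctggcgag
H2-Eb1, chr17:34305763-34305822, plus strand: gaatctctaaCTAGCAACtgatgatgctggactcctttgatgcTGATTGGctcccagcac
H2-DMb1, chr17:34153084-34153144, plus strand: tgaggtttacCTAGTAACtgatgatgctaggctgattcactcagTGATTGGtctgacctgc

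The X core and the Y box started 33 or 34 bases apart in these stretches, and the X core began 84, 94 and 97 bases before the RefSeq start of H2-Aa, H2-Eb1 and H2-DMb1. The letters of the X core alone occurred in 39.1% of all windows and those of the Y box alone in 7.82%. The window of Ctss held another motif, the core of the interferon-stimulated response element bound by IRF factors, searched as GAAANNGAA on both strands and present in 8.56% of all windows. This stretch was picked with the Ctss values known, and any part of the motif in those values was not tested.
Ctss, chr3:95526755-95526783, plus strand: gtctttaaatGAAACCGAAatgaaagttc

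Among the other genes of the pathway searched, the pair was also in the windows of H2-Eb2, H2-Oa and H2-Ob. It was thus found in 6 of 19 genes with a window, the set included. These 19 also hold transcription factors such as Rfx5 and Nfya and lysosomal genes such as Ctsl and Ifi30. H2-DMb2 had both motifs but not the pair. A match is a description of letters in this window, and binding was not measured.

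Compared per kilobase of merged exon, Cd74 was the most abundant of the 8 genes and Ciita the least. Cd74 averaged 173 CPM per kb over the 4 libraries (113 to 239), followed by H2-Eb1 at 63.0 CPM per kb (49.9 to 78.8). H2-Ab1 (37.9 CPM per kb, 27.7 to 47.5) and H2-Aa (35.4 CPM per kb, 28.7 to 46.1) came next, and their ranges overlapped. Ctss followed at 19.1 CPM per kb (13.6 to 22.3) and H2-DMb1 at 9.05 CPM per kb (6.72 to 11.3). H2-DMa was at 3.04 CPM per kb (2.57 to 3.99) and Ciita at 0.677 CPM per kb (0.607 to 0.789). Apart from H2-Ab1 and H2-Aa, no range overlapped that of its neighbour in this order.

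In the comparison of genotypes, the chains and the invariant chain were measured higher in ZBP1-KO kidneys, while Ciita, H2-DMa and Ctss were not. None of the 8 genes passed the threshold of an adjusted p under 0.05 in the quasi-likelihood test of edgeR, in which 2 of 14908 genes (0.0134%) were called in all. At an unadjusted p under 0.05, 3 of the 8 were higher in ZBP1-KO (H2-Ab1, H2-Eb1 and Cd74) and 0 were lower, against 3.88% of all genes tested in either direction, 1.91% higher and 1.97% lower. Without the first WT library, 0 of the 8 had an unadjusted p under 0.05, and without the first ZBP1-KO library H2-Ab1 was higher and Ctss lower at that level. For 5 of the 8 (H2-Aa, H2-Ab1, H2-Eb1, H2-DMb1 and Cd74), both ZBP1-KO values were above both WT values, and for 0 of the 8 were both below, against 16.0% and 16.3% of all genes. With other tools 0 of the 8 were called as well, and the genes at an unadjusted p under 0.05 numbered 3 in the exact test of edgeR, 3 in its likelihood ratio test, 3 in DESeq2 and 4 in limma-voom. The 8 genes had a median log2 fold change (ZBP1-KO over WT) of 0.41, against -0.01 for all genes tested, and 5 of the 8 were fitted above 0, against 49.4% of all genes. The median was 0.26 without the first ZBP1-KO library.

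**Figure D1:**
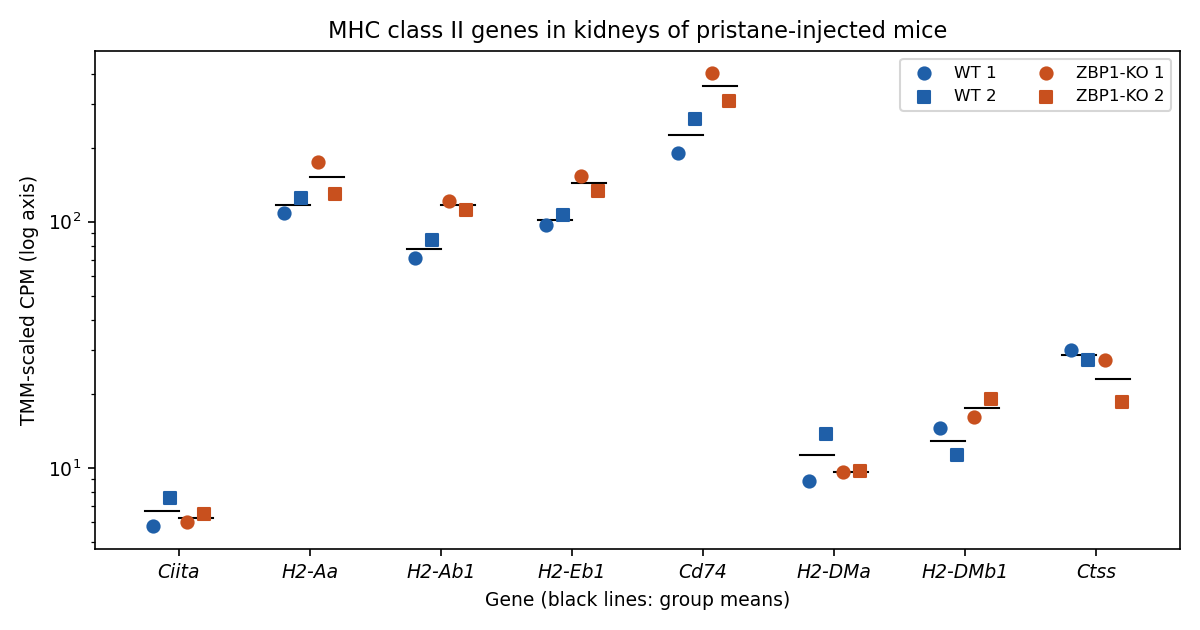
Level of each of the 8 MHC class II presentation genes in CPM (log axis) in the 2 WT and 2 ZBP1-KO libraries, with points for libraries and bars for group means. Both ZBP1-KO points lie above both WT points for H2-Aa, H2-Ab1, H2-Eb1, H2-DMb1 and Cd74, and the groups overlap for Ciita, H2-DMa and Ctss.

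The classical chains form the cell-surface dimers. H2-Aa (ENSMUSG00000036594, chromosome 17, 34282744 to 34287823, minus strand, 5 merged exons) encodes the alpha chain of I-A and was measured at 109 and 124 CPM in WT kidneys against 175 and 129 in ZBP1-KO kidneys. The ZBP1-KO values were both above the WT values, but the second ZBP1-KO library lay within 5 CPM of the second WT library. H2-Aa had a log2 fold change of 0.38 ± 0.20 (SE), with an unadjusted p of 0.0814 and an adjusted p of 0.999 in the edgeR quasi-likelihood test. Without the first ZBP1-KO library the log2 fold change was 0.14.

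H2-Ab1, the beta chain of I-A (chromosome 17, 34257689 to 34269419, plus strand, 6 merged exons), was at 71.3 and 84.2 CPM in WT kidneys against 122 and 112 in ZBP1-KO kidneys. Of the 3 chains, it was the one whose groups lay farthest apart on the log2 scale, with group means of 77.7 ± 9.12 CPM and 117 ± 7.02 CPM (SD, n = 2 each). This was a log2 fold change of 0.59 ± 0.19 (SE) or a fold of 1.51, with an edgeR p of 0.0083 unadjusted and 0.999 adjusted. Leaving out each library in turn gave log2 fold changes of 0.47 to 0.71.

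H2-Eb1 encodes the beta chain of I-E (chromosome 17, 34305867 to 34316674, plus strand, 6 merged exons). It was at 96.9 and 106 CPM in WT kidneys against 153 and 133 in ZBP1-KO kidneys, with no overlap between the groups. H2-Eb1 had a log2 fold change of 0.50 ± 0.18 (SE) or a fold of 1.41, and its edgeR p was 0.0188 unadjusted and 0.999 adjusted. The C57BL/6 strain is known to lack a working E alpha chain, and H2-Ea, annotated as a pseudogene, had 0 counts in all 4 libraries, so that transcripts of H2-Eb1 were counted without those of its partner.

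Cd74, the invariant chain and chaperone of all class II dimers (chromosome 18, 60803848 to 60812652, plus strand, 9 merged exons), had 2367 and 3060 counts in WT kidneys against 5434 and 2873 in ZBP1-KO kidneys. After scaling, this was 190 and 262 CPM in WT against 401 and 309 CPM in ZBP1-KO. Both ZBP1-KO libraries were above both WT libraries in CPM, with the first of each genotype at the extremes. The log2 fold change was 0.65 ± 0.21 (SE), which is a fold of 1.57 and the largest of the 8, and the edgeR p was 0.00978 unadjusted and 0.999 adjusted. It lay between 0.43 and 0.89 with each library left out. Without the second ZBP1-KO library its adjusted p was 0.175, the lowest reached by any of the 8 genes under the 14 alternatives.

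The peptide-exchange dimer is made of H2-DMa and H2-DMb1, which ranked the libraries differently. The alpha chain gene H2-DMa (chromosome 17, 34119541 to 34139101, plus strand) was at 8.85 and 13.8 CPM in WT kidneys against 9.59 and 9.69 in ZBP1-KO kidneys, so that the ZBP1-KO libraries lay between the WT libraries. The beta chain gene H2-DMb1 (chromosome 17, 34153072 to 34160230, plus strand) was at 14.5 and 11.3 CPM in WT kidneys against 16.1 and 19.0 in ZBP1-KO kidneys, without overlap. The log2 fold changes were -0.23 ± 0.35 for H2-DMa and 0.44 ± 0.29 for H2-DMb1 (SE), and the edgeR p were 0.525 and 0.150 unadjusted and 0.999 adjusted for each.

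The H2-DM counts carry 2 limits of annotation. Of the merged exons of H2-DMa, 360 bases (10.4%) overlap exons of Brd2 on the opposite strand, and whether counting used the strand is not given in the sources used here. Brd2, a bromodomain gene, was at 90.6 and 109 CPM in WT kidneys against 82.3 and 92.4 in ZBP1-KO kidneys, and its part in the H2-DMa values was not tested. Of the 1305 windows of 100 bases along the longest H2-DMb1 transcript, 179 (13.7%) are shared with the paralog H2-DMb2, so that read pairs lying wholly in such stretches cannot be told apart between these genes. The other 7 genes had no such shared window.

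Cathepsin S (Ctss, chromosome 3, 95526786 to 95556403, plus strand, 8 merged exons), the protease that cuts the last part of the invariant chain in antigen-presenting cells, was at 30.2 and 27.5 CPM in WT kidneys against 27.5 and 18.5 in ZBP1-KO kidneys. Its groups touched in the second WT and the first ZBP1-KO library, and the second ZBP1-KO library was the lowest. Ctss had a log2 fold change of -0.32 ± 0.25 (SE) with an edgeR p of 0.230 unadjusted and 0.999 adjusted, and the log2 fold change was -0.08 without the second ZBP1-KO library and -0.65 without the first, at edgeR p of 0.779 and 0.0389 unadjusted and 0.964 and 0.610 adjusted.

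Ciita, the master coactivator (chromosome 16, 10480059 to 10528418, plus strand, 24 merged exons), had 72 and 88 counts in WT kidneys against 82 and 60 in ZBP1-KO kidneys. In CPM the libraries were at 5.79 and 7.53 in WT and at 6.05 and 6.46 in ZBP1-KO, so that both ZBP1-KO values lay inside the WT range. Ciita had a log2 fold change of -0.09 ± 0.43 (SE) with an edgeR p of 0.838 unadjusted and 0.999 adjusted, and the log2 fold change was 0.10 without the second WT library. At the lowest count, counting error alone gives a coefficient of variation of 12.9% for Ciita, against 2.06% for Cd74, and 329 bases of its exons (3.45%) overlap Dexi on the opposite strand. A difference in Ciita as large as that of Cd74 was within 2 SE of its estimate and was not detectable at this depth and replicate number.

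**Figure D2:**
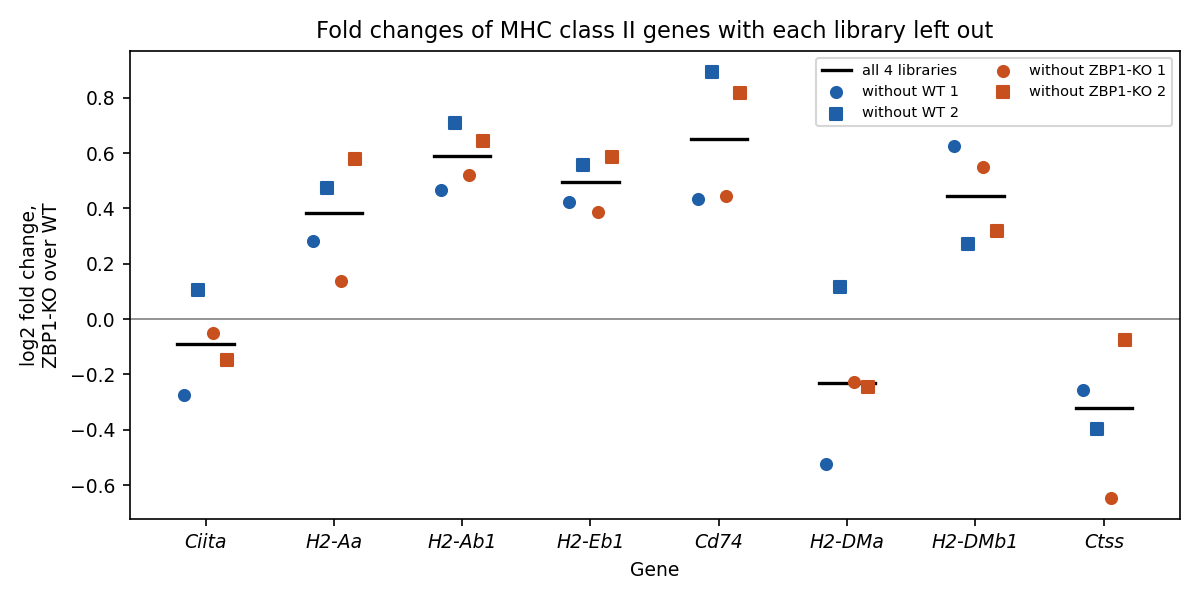
Log2 fold change (ZBP1-KO over WT) of each of the 8 genes with all 4 libraries (black lines) and with each library left out in turn (points). H2-Ab1, H2-Eb1 and Cd74 stay above 0.38, H2-Aa falls to 0.14 without the first ZBP1-KO library, and Ciita and H2-DMa change sign without the second WT library.

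Ratios of counts within a library do not depend on how libraries are scaled. They were formed after the values had been seen and are given without a test. The ratio of Cd74 to Ctss was 6.30 and 9.53 in WT kidneys against 14.6 and 16.7 in ZBP1-KO kidneys, and that of Cd74 to Ciita was 32.9 and 34.8 in WT kidneys against 66.3 and 47.9 in ZBP1-KO kidneys. The invariant chain was thus counted more often per protease transcript and per coactivator transcript in both ZBP1-KO libraries. Against the chains, the ratio of Cd74 to H2-Aa was 1.75 and 2.10 in WT kidneys against 2.29 and 2.40 in ZBP1-KO kidneys without overlap, whereas that of Cd74 to H2-Ab1 overlapped, at 2.67 and 3.11 in WT kidneys against 3.29 and 2.76 in ZBP1-KO kidneys. Between the chains, H2-Aa to H2-Ab1 was 1.53 and 1.48 in WT kidneys against 1.44 and 1.15 in ZBP1-KO kidneys, and H2-Eb1 to H2-Ab1 was 1.36 and 1.261 in WT kidneys against 1.256 and 1.19 in ZBP1-KO kidneys, both lower in ZBP1-KO, the latter by a narrow margin. The ratio of H2-DMb1 to H2-DMa was 1.64 and 0.820 in WT kidneys against 1.68 and 1.96 in ZBP1-KO kidneys, with the second WT library low.

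Around the 8 genes, a wider list of 42 class II pathway genes, the 8 included, was described in 7 groups. Of these, 37 were tested, edgeR called 0, and at an unadjusted p under 0.05 there were 5 with higher and 1 with lower levels in ZBP1-KO, against 1.91% and 1.97% of all genes, with 3 of the 5 among the 8 genes. The other tests, in the order of exact, likelihood ratio, DESeq2 and limma-voom, called 0 as well, with 6, 6, 5 and 7 genes at an unadjusted p under 0.05. Of the 29 tested genes other than the 8, both ZBP1-KO values were above both WT values for 7 and below for 3, and 19 overlapped, against 16.0% above and 16.3% below over all genes. All 34 genes other than the 8, untested ones included, summed to 1043 and 1016 CPM in WT kidneys against 1054 and 1038 in ZBP1-KO kidneys. The largest part was Ctsb, a lysosomal gene, at 229 and 216 CPM in WT kidneys against 231 and 213 in ZBP1-KO kidneys. This range was narrower than that of the 8 genes. The 8 genes summed to 527 and 636 CPM in WT kidneys against 910 and 738 in ZBP1-KO kidneys.

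Upstream of Ciita, the interferon gamma axis held 6 tested genes with a median log2 fold change of 0.23. Irf1, the transcription factor that acts on the interferon-responsive promoter of Ciita, was at 19.7 and 30.02 CPM in WT kidneys against 51.9 and 35.7 in ZBP1-KO kidneys. It did not overlap between genotypes, with a log2 fold change of 0.82 ± 0.27 (SE) and an edgeR p of 0.00977 unadjusted and 0.999 adjusted. Jak2, a kinase bound to the interferon gamma receptor, had a log2 fold change of -0.40 ± 0.32. Ifng itself had 0 counts in all 4 libraries, which allows a level of up to 0.221 to 0.323 CPM depending on the library.

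The transactivation group of 8 genes, Ciita with the RFX and NFY subunits and CREB1 that bind the X and Y boxes, had a median log2 fold change of -0.09. In 6 of these genes the genotypes overlapped, 1 was above and 1 below in both ZBP1-KO libraries, against 16.0% and 16.3% of all genes. Rfx5, which binds the X box, was at 6.68 and 3.59 CPM in WT kidneys against 2.80 and 1.51 in ZBP1-KO kidneys, the lower values lying in both ZBP1-KO libraries. The log2 fold change of Rfx5 was -1.24 ± 0.66 (SE), with an edgeR p of 0.0865 unadjusted and 0.999 adjusted, and that of its partner Rfxap was -0.35 ± 0.44.

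The remaining class II chains and exchange factors had low counts in most libraries, although H2-DMb2 reached 114 counts in the first ZBP1-KO library. H2-Eb2, a further E beta gene, had 4 counts in the first ZBP1-KO library and 0 in the others. H2-Oa, whose product with that of H2-Ob restrains H2-DM, had 2 and 0 counts in WT kidneys against 22 and 0 in ZBP1-KO kidneys, and H2-Eb2 and H2-Oa failed the filter. H2-DMb2 was at 1.37 and 2.91 CPM in WT kidneys against 8.41 and 1.51 in ZBP1-KO kidneys, with a log2 fold change of 1.23 ± 0.81 that was -0.50 without the first ZBP1-KO library. H2-Ob was at 0.965 and 1.88 CPM in WT kidneys against 1.11 and 4.96 in ZBP1-KO kidneys, with a log2 fold change of 1.07 ± 0.96 that was -0.37 without the second ZBP1-KO library. For each of these genes a single ZBP1-KO library carried the high value.

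The group of the invariant chain and endosomal processing held 8 genes, with a median log2 fold change of -0.11. Of these, 1 (Cd74) was above and 2 (Ctsd and Ctsh) were below in both ZBP1-KO libraries, against 16.0% and 16.3% of all genes. Ctsh, an aminopeptidase cathepsin, was at 60.2 and 52.2 CPM in WT against 42.6 and 37.3 CPM. Ctsh had a log2 fold change of -0.49 ± 0.20 (SE), and its edgeR p was 0.0309 unadjusted and 0.999 adjusted. For the other lysosomal genes the log2 fold changes were -0.04 for Ctsl, -0.00 for Ctsb, -0.13 for Ctsd, -0.09 for Lgmn, and -0.21 for Ifi30, the thiol reductase that opens disulfide bonds of antigens. These lysosomal genes are expressed throughout kidney epithelium as well as in antigen-presenting cells.

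At the cell surface, Cd83, which protects class II from ubiquitin-driven removal, was at 2.90 and 4.28 CPM in WT kidneys against 6.19 and 5.49 in ZBP1-KO kidneys, with a log2 fold change of 0.71 ± 0.53. Marchf1, annotated as March1 and encoding the ligase that removes class II, had a log2 fold change of 0.18 ± 0.86. Icosl, a costimulatory ligand, was at 15.04 and 19.2 CPM in WT kidneys against 22.05 and 30.1 in ZBP1-KO kidneys, with a log2 fold change of 0.60 ± 0.26 (SE) and an edgeR p of 0.0419 unadjusted and 0.999 adjusted. Cd4, the coreceptor that binds class II, was at 0.965 and 0.941 CPM in WT kidneys against 2.51 and 2.48 in ZBP1-KO kidneys, with a log2 fold change of 1.38 ± 0.97, and Lag3, an inhibitory class II receptor, had 0.74 ± 1.03. The ligand Cd80 failed the filter, with 8 and 0 counts in WT kidneys against 0 and 6 in ZBP1-KO kidneys.

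**Figure D3:**
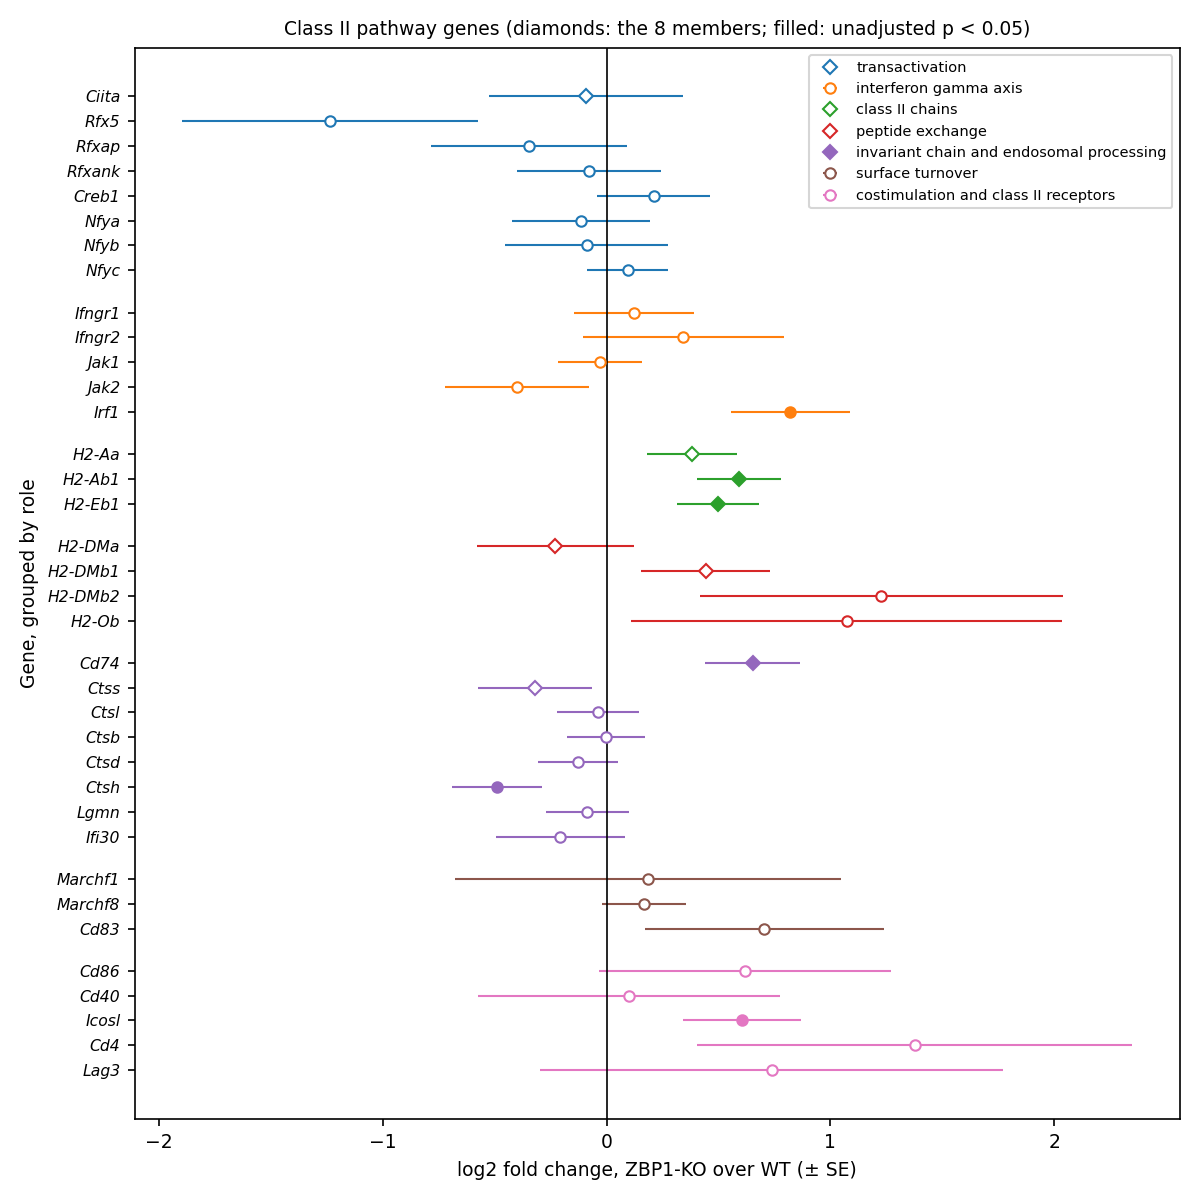
Log2 fold change (ZBP1-KO over WT, points) with SE (bars) for 36 of the 37 tested class II pathway genes in their 7 groups, with the 8 genes of the set as diamonds, filled symbols for an unadjusted p under 0.05 and colours for the groups. H2-Ab1, H2-Eb1, Cd74, Irf1 and Icosl are above 0 and Ctsh below 0 at an unadjusted p under 0.05, and no gene had an adjusted p under 0.05.

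Markers of the cells that usually carry class II were set beside these levels. Of 10 macrophage markers, all tested, both ZBP1-KO values were above both WT values for 6 and below for 0, against 16.0% and 16.3% of all genes. Their summed level was 300.5 and 217 CPM in WT kidneys against 306 and 303 in ZBP1-KO kidneys. Csf1r, the growth factor receptor of macrophages, was at 148 and 102 CPM in WT kidneys against 128 and 131 in ZBP1-KO kidneys, whereas Adgre1 (F4/80) was at 3.62 and 2.39 CPM in WT kidneys against 4.13 and 4.63 in ZBP1-KO kidneys. Cx3cr1, the fractalkine receptor of kidney mononuclear phagocytes, was at 6.997 and 7.10 CPM in WT kidneys against 12.2 and 17.02 in ZBP1-KO kidneys, with a log2 fold change of 1.05 ± 0.34 (SE) and an edgeR p of 0.0095 unadjusted and 0.999 adjusted. Cd68 overlapped, at 7.24 and 6.93 CPM in WT kidneys against 10.5 and 5.06 in ZBP1-KO kidneys.

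Of the 7 dendritic cell markers 4 were tested. Among these, 1 was above and 1 below in both ZBP1-KO libraries, against 16.0% and 16.3% of all genes. The marker above was Clec9a, at 2.09 and 3.16 CPM in WT kidneys against 5.68 and 5.06 in ZBP1-KO kidneys. The marker below was Clec10a, at 2.73 and 1.63 CPM in WT kidneys against 0.959 and 1.29 in ZBP1-KO kidneys. The 7 markers summed to 17.05 and 23.3 CPM in WT kidneys against 23.0 and 25.2 in ZBP1-KO kidneys. Itgax was at 4.02 and 2.65 CPM in WT kidneys against 2.95 and 5.60 in ZBP1-KO kidneys, Zbtb46 at 8.12 and 14.7 CPM in WT kidneys against 13.1 and 10.9 in ZBP1-KO kidneys, and both overlapped. Flt3, Xcr1 and Cd209a, further markers of these cells, were below the filter, and each had 0 counts in at least 1 library. B cells, which also express class II, were represented at a low level. Ms4a1 had 0 counts in 3 libraries, Cd79a had 0 in both ZBP1-KO libraries, and the 6 markers summed to 8.20 and 8.30 CPM in WT kidneys against 4.13 and 5.82 in ZBP1-KO kidneys.

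Over all leukocytes, 2 of 5 markers were above and 1 below in both ZBP1-KO libraries, and 2 overlapped, against 16.0% above and 16.3% below over all genes. They summed to 90.7 and 74.2 CPM in WT kidneys against 120 and 90.5 in ZBP1-KO kidneys, where the second ZBP1-KO library was just below the first WT library. Ptprc (CD45) was at 12.7 and 7.10 CPM in WT kidneys against 19.7 and 12.9 in ZBP1-KO kidneys, and Coro1a, a leukocyte actin regulator, at 32.8 and 25.4 CPM in WT kidneys against 44.4 and 38.2 in ZBP1-KO kidneys. Neither overlapped between genotypes, although the second ZBP1-KO and the first WT library nearly met in Ptprc, and Laptm5 overlapped at 20.7 and 20.0 CPM in WT kidneys against 28.3 and 17.6 in ZBP1-KO kidneys. Cd53, a leukocyte tetraspanin, was the marker with lower values, at 7.48 and 6.93 CPM in WT kidneys against 6.49 and 6.57 in ZBP1-KO kidneys. The 6 T cell markers summed to 13.4 and 8.30 CPM in WT kidneys against 21.5 and 16.1 in ZBP1-KO kidneys. The sums of the macrophage and T cell markers thus did not overlap between genotypes, and those of the leukocyte and dendritic cell markers did. Some of these rest on near-ties. The macrophage sums were 300.5 CPM in the first WT library against 303 in the second ZBP1-KO library. For dendritic cells they were 23.3 CPM in the second WT library against 23.0 in the first ZBP1-KO library. The part of leukocyte content in the class II levels was not tested.

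The ratio of the summed H2-Aa, H2-Ab1, H2-Eb1 and Cd74 counts to those of a marker list is again free of library scaling, and it too was formed after the values had been seen. To leukocyte markers it was 5.15 and 7.76 in WT kidneys against 7.06 and 7.56 in ZBP1-KO kidneys. To macrophage markers it was 1.56 and 2.65 in WT kidneys against 2.78 and 2.26 in ZBP1-KO kidneys, and to dendritic cell markers 27.4 and 24.7 in WT kidneys against 37.0 and 27.1 in ZBP1-KO kidneys. The genotypes overlapped in all 3 ratios. For dendritic cell markers this was a near-tie, at 27.4 in the first WT library against 27.1 in the second ZBP1-KO library. The 4 genes alone summed to 467 and 576 CPM in WT kidneys against 851 and 684 in ZBP1-KO kidneys, without overlap. The part of leukocyte content in these levels was not tested.

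**Figure D4:**
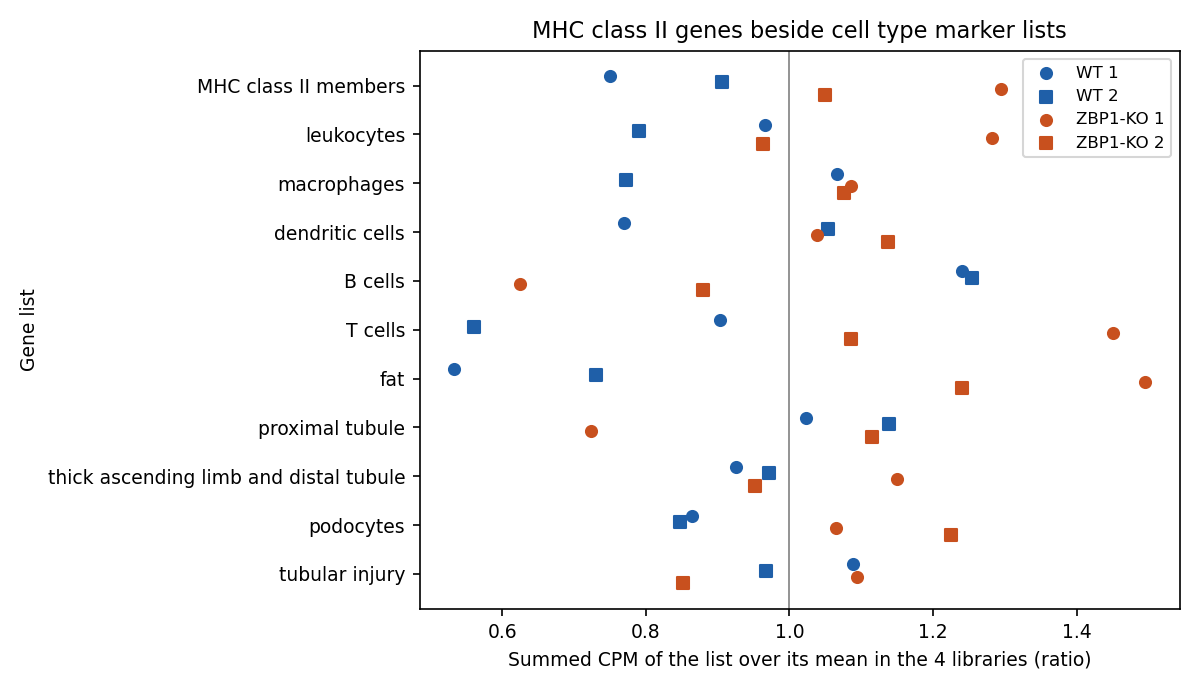
Summed CPM of the 8 MHC class II genes and of each marker list in each library, divided by the mean of the 4 libraries (ratio, linear axis), with 1 point per library. The sums of the 8 class II genes and of the fat, T cell, podocyte and macrophage markers are higher in both ZBP1-KO libraries than in both WT libraries, the B cell sum is lower, and the others overlap. The margin is narrow for the macrophage sum, as is the overlap for the leukocyte and dendritic cell sums.

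Markers of other tissues were measured as well. Of the 6 fat markers 5 were tested, and all 5 had higher values in both ZBP1-KO libraries, against 16.0% of all genes. The 6 markers summed to 78.8 and 108 CPM in WT kidneys against 221 and 183 in ZBP1-KO kidneys, with Lep at 0 counts throughout. Among them Cfd (adipsin) was at 14.4 and 19.8 CPM in WT kidneys against 83.7 and 73.3 in ZBP1-KO kidneys and was 1 of the 2 genes called in the comparison (adjusted p = 0.00889 in edgeR). The 6 proximal tubule markers summed to 1395 and 1555 CPM in WT kidneys against 987 and 1522 in ZBP1-KO kidneys, and the first ZBP1-KO library, which was lowest in these markers and in its mitochondrial share (49.5%), was the highest in H2-Aa, H2-Ab1, H2-Eb1 and Cd74. The podocyte markers, 4 in all, summed to 98.2 and 96.2 CPM in WT kidneys against 121 and 139 in ZBP1-KO kidneys without overlap. Among them Synpo, an actin-binding protein of podocytes, was at 33.1 and 36.01 CPM in WT kidneys against 48.8 and 59.5 in ZBP1-KO kidneys, with a log2 fold change of 0.65 ± 0.21 (SE) and an edgeR p of 0.00865 unadjusted and 0.999 adjusted. The part of these differences in the class II levels was not tested. With the mitochondrially encoded genes left out of the library sizes, the median log2 fold change of the 8 genes was 0.41, as with them.

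Across the 4 libraries, the mean log2 profile of the 8 genes, each centred on its own mean, was -0.22 and -0.03 in WT and 0.21 and 0.04 in ZBP1-KO. H2-Aa lay nearest to this mean profile, at a Euclidean distance of 0.228, and Ctss farthest, at 0.695. Of 14125 genes compared outside the lists, the 5 nearest were Gimap6 (0.0227), Rragc (0.0382), Srp9 (0.0390), Dhx36 (0.0436) and Syt11 (0.0453). Their log2 fold changes were 0.21 to 0.26. A mean over 8 genes that differ in direction is flatter than most of its members, and 736 genes lay nearer to it than H2-Aa.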

How the data were processed

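The authors deposited unnormalized read-pair counts for each Ensembl gene, made from paired TruSeq reads of polyadenylated RNA by trimming, alignment with HISAT2 (mm10 per the labels) and counting of uniquely mapped pairs with featureCounts. Program versions and strand setting are not given in the sources used here. Duplicate reads were not described as removed, so count limits cover counting error only. Symbols and positions came from GENCODE M21 (54495 of 54532 IDs matched, 37 did not).

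Counts were filtered with filterByExpr (minimum count 10, total 15), TMM-scaled and tested two-sided with the quasi-likelihood F test of edgeR 4.0.16 (R 4.3.3), genotype as the only term, Benjamini-Hochberg adjustment over 14908 genes and a threshold of 0.05. SE is the absolute log2 fold change over the square root of F. An exact permutation test of 2 against 2 cannot give a p below 0.333 and was not used. Figures on levels use CPM, profiles log2 CPM (prior count 2).

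The 8 genes and all lists were chosen with earlier results of these data known. Named were the 8 genes, Zbp1, pathway genes with unadjusted p under 0.05, untested ones and the 2 largest changes per group, the first 3 markers of the leukocyte, macrophage and dendritic cell lists, and the 5 nearest profiles. Other genes were named after their values were seen. The values of 1 pathway gene are not reported here, and it is left out of the plot of pathway fold changes but kept in the counts. Marker lists for thick ascending limb and distal tubule and for tubular injury, which overlapped between genotypes, summed to 1521 to 1891 and 487 to 625 CPM over the libraries.

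Alternatives were DESeq2-type and upper quartile factors, 2 other filters, mitochondrially encoded genes left out, a replicate block, both classical tests of edgeR (exact and likelihood ratio), DESeq2 1.42.0, limma-voom (limma 3.58.1) and each library left out.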

Additional observations from a re-analysis of the deposited data

How the results depend on the processing

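Under 14 alternatives, 110 of 112 log2 fold changes of the 8 genes kept their sign. The exceptions were Ciita at 0.10 and H2-DMa at 0.12, both without WT library 2, and the cause was not tested. With each library left out, Ciita ranged from -0.28 to 0.10 and H2-DMa from -0.52 to 0.12. None of the 8 genes and none of the 42 pathway genes was called by edgeR, DESeq2 or limma-voom under any alternative. The unadjusted p was under 0.05 for 0 of the 8 genes without WT library 1, for 2 without ZBP1-KO library 1 (H2-Ab1 higher and Ctss lower) and for 3 or 4 otherwise. The median log2 fold change of the 8 genes ranged from 0.26 (without ZBP1-KO library 1) to 0.45 with a library left out, and scaling moved the median of all genes by less than 0.1.

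The number of genes called among all tested was 2, and rose to 41 without the filter, 4 without mitochondrially encoded genes, 14 in the exact test, 26 in the likelihood ratio test, 9 in DESeq2 and 7 in limma-voom. It ranged from 0 to 37 with a library left out (0 without WT library 1, 20 without WT library 2, 8 and 37 without ZBP1-KO libraries 1 and 2). The replicate block gave 11 calls. Deviations of same-numbered libraries correlated at 0.00399 across genes, so the numbers were not taken as pairs. With 2 libraries per genotype, differences of the size seen in H2-Aa or H2-DMb1 were within about 2 SE of 0.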
